A study of Mus musculus with 16 samples.

Results

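A set of 10 genes of the mouse prostanoid system were followed across 16 RNA-seq libraries of the dorsal root ganglion, the cluster of sensory neuron cell bodies beside the spinal cord. The members are a named list of genes, matched to the files by gene symbol, and all 10 were found among 53379 gene IDs. Of these, 9 encode the prostanoid receptors and Ptgfrn encodes a membrane protein that binds the prostaglandin F receptor and is not itself a receptor for the ligand. Tests covered the 16099 genes with a mean of at least 1 TPM (length-corrected transcript abundance, on a fixed total per library) in either fraction, and 9 of the 10 members were among them. Ptger1 and Ptger2 passed through the pulldown fraction only, and Ptgdr2 did not pass.

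The IP libraries held RNA from ribosomes pulled down with antibodies against GFP, and they were set against the IN libraries, total RNA of whole ganglia. The letters IP stand for this fraction throughout, never for the prostacyclin receptor protein. Both came from untreated C57BL/6J mice of 8 to 12 weeks that carried Nav1.8Cre and Rosa26fstrap. In these animals the Scn10a promoter, which belongs to the Nav1.8 sodium channel, drives Cre, and Cre switches on a ribosomal protein L10a fused to EGFP, so the tag marks every cell in which that promoter has been active and is not limited to one kind of nociceptor. Each library was a pool of 3 mice of one sex, with 4 female and 4 male pools (24 mice), and every pool gave 1 IP and 1 IN library. All groups carried both transgenes. The series title concerns sex differences in prostaglandin signalling, so female pools were set against male pools within each fraction.

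Prostaglandins and thromboxane are lipids made from arachidonic acid by the cyclooxygenases, the enzymes that aspirin-like drugs block. Their receptors are G protein-coupled and fall into groups by the G protein each mainly uses. The prostacyclin receptor (Ptgir), the prostaglandin E receptors EP2 (Ptger2) and EP4 (Ptger4) and the prostaglandin D receptor DP1 (Ptgdr) couple to Gs and raise cyclic AMP. EP3 (Ptger3) and DP2 (Ptgdr2) couple to Gi and lower it, and EP1 (Ptger1), the prostaglandin F receptor (Ptgfr) and the thromboxane receptor (Tbxa2r) act mainly through Gq and calcium. In sensory neurons, cyclic AMP and protein kinase A or C signalling downstream of these receptors is known to sensitise ion channels of pain-sensing neurons.

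TPM are corrected for gene length, so levels can be set side by side between genes. The share of TPM from nuclear genes that encode proteins was 45.0% to 79.9% in IP libraries but 9.6% to 13.4% in IN libraries, so each library was divided by a factor that aligns its typical gene with the other libraries. Levels below are these scaled TPM, and a change in IP is a change relative to the typical gene. In the deposited TPM without that step the median gene was higher in IP by 1.84 on the log2 scale. The pulldown was checked on 13 nociceptor markers, all of which were higher in IP, with a summed level of 2970 to 4220 in IP and 1160 to 1390 in IN. Markers of satellite glia (8), Schwann cells (8), fibroblasts and leptomeninges (8) and macrophages (7 tested) were all lower in IP, but none of these lists had a marker at 0 in every IP library, and the summed satellite glia level was still 126 to 289 in IP, against 958 to 1270 in IN. Markers of large-diameter sensory neurons (8 of 9 tested), endothelial cells (6 of 7) and mural cells (6 of 6) were lower in IP as well. The large-diameter neuron markers summed to 186 to 298 in IP and 463 to 581 in IN. The IP library of female pool 2 stood apart, with the lowest coding share and the highest summed level of 8 of 11 lists of other cell types, so results are also given without that pool where it matters. Sequencing depth is unknown, since the files keep no read counts.

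The receptor genes split into a group that was higher in ribosome-bound RNA and a group that was lower. Ptgir, Ptger1, Ptgdr and Ptger3 rose in IP, Ptgfr, Ptgfrn, Tbxa2r and Ptger4 fell relative to the typical gene, and Ptger2 did not pass. In the deposited TPM without scaling, the count was 7 higher and 0 lower, while the median gene moved by 1.84 and 90.8% of all genes tested were called higher. Ptger4 and Ptgfrn turned there to log2 values of 1.45 and 0.48 and were called higher, as was Ptger2 at 0.85. Tbxa2r, at 0.15, and Ptgfr, at -0.07, did not pass there. Of the 8 called members, quantile normalization turned Ptger4, to 0.28. Fitted with limma, with the pools as a blocking term, 79.4% of the 16099 genes had an adjusted p under 0.05 (40.5% were higher and 38.9% lower), so a share of 8 in 9 is near the background. What sets the members apart from each other is the size of the changes, which ran from a log2 of -1.92 to 1.18. Their order depends in part on the 1 added before the log, which shrinks changes of low genes. By fitted change Ptgfrn fell more than Tbxa2r (-1.49 and -1.13), but by ratio of means Tbxa2r did (IN over IP 3.29 and 3.95). Ptgir likewise rose more than Ptger1 in the fit (1.18 and 1.15), and less by means (IP over IN 2.40 and 2.86). The counts of 4 higher and 4 lower were the same without female pool 2.

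**Figure D1:**
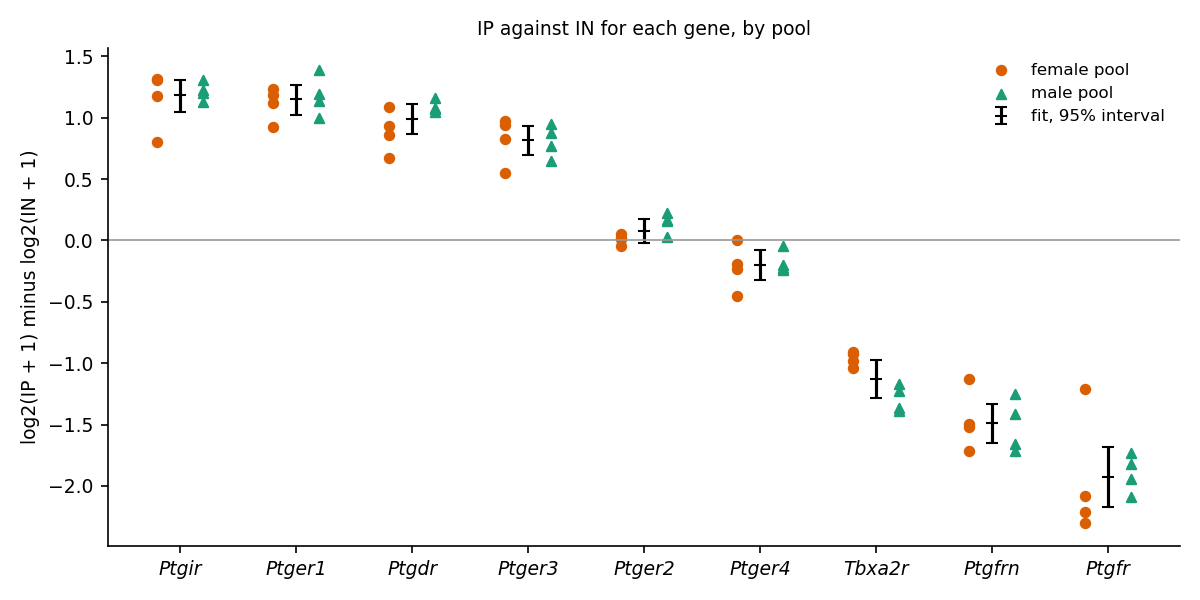
Log2 difference between the IP and the IN library of each pool (scaled TPM with 1 added, vertical axis) for the 9 tested genes, with female pools as circles left of the black mark and male pools as triangles right of it. Black marks are the fitted change with its 95% interval; Ptgir, Ptger1, Ptgdr and Ptger3 lie above 0 in all 8 pools, Tbxa2r, Ptgfrn and Ptgfr below 0 in all 8 pools (in deposited TPM without scaling the fitted values of Tbxa2r and Ptgfrn, and of Ptger4, were above 0).

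Ptgir and Ptgfr show this most plainly. The ratio of the Ptgir to the Ptgfr level was 5.44 to 15.8 (median 13.6) in IP libraries and 0.698 to 1.14 (median 1.0) in IN libraries, so genes of nearly equal level in the whole ganglion were far apart on the tagged ribosomes. This ratio is taken within a library and does not depend on the scaling. The starts of both genes are shown here for that contrast, together with Ptgdr, which changed in the same direction as Ptgir. Each sequence is the RefSeq promoter window on GRCm38.p6, written 5′ to 3′ along the gene. The 250 bases before the RefSeq start are in lower case and the 50 bases from that start in capitals. For Ptgfr the gene coordinates given further below place the start at 151837630, which falls within its lower-case bases. The windows are at chr7:16906240-16906539 (plus strand) for Ptgir, chr14:44859326-44859625 (minus strand) for Ptgdr and chr3:151837479-151837778 (minus strand) for Ptgfr.
Ptgir: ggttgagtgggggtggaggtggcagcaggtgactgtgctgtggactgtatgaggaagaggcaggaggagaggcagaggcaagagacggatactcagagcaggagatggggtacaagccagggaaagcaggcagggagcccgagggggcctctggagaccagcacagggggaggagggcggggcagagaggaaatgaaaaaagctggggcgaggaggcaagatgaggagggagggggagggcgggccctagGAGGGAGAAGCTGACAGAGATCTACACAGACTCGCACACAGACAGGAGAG
Ptgdr: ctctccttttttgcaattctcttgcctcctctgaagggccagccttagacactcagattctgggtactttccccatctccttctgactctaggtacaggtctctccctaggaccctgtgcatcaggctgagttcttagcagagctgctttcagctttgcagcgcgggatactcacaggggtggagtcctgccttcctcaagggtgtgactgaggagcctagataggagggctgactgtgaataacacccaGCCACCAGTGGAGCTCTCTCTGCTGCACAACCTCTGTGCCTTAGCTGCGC
Ptgfr: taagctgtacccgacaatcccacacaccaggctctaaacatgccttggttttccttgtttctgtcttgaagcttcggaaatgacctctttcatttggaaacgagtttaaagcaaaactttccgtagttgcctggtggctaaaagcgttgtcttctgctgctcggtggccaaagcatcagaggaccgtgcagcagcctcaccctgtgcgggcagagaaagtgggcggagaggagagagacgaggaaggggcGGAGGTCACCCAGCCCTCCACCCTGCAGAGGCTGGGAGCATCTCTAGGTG
These windows differ in base composition, with 62.0% G and C in Ptgir, 54.7% in Ptgdr and 54.3% in Ptgfr, and with 6, 3 and 11 CpG dinucleotides in that order of genes. Short motifs were searched by exact letters on both strands in the windows of the 9 members that had one. The GC box letters GGGCGG occur in 35.7% of 32851 mouse promoter windows of the same length, and they were found 2 times each in Ptgir and Ptgfr and 0 times in Ptgdr. TGTGGT, the core that RUNX factors bind, occurs in 16.8% of promoters and was in 0 of these windows. TATAAA (13.6% of promoters) and TGACG, a part of the cyclic AMP response element (20.8%), were absent from the 3 windows shown. One of the 2 Tbxa2r start windows held TGACG, 26 bases before the start. A match is a match of letters only.

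Ptgir, the prostacyclin receptor gene (ENSMUSG00000043017.9, chromosome 7, 16906490 to 16910905, plus strand, GRCm38), was at 20.1 to 28.7 scaled TPM in the 8 IP libraries (median 25.8) and at 8.41 to 11.5 in the 8 IN libraries (median 10.9). No IN library reached the lowest IP library. The 8 IP libraries averaged 25.2 ± 2.72 and the 8 IN libraries 10.5 ± 1.01 (SD), a ratio of 2.40. On the log2 scale with 1 added, the rise was 1.18 ± 0.06 (SE, limma adjusted p = 5.8e-08), larger than that of 98.6% of tested genes, and it ran from 0.81 in female pool 2 to 1.32 in another female pool. Without female pool 2 it was 1.24.

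Ptgdr, the DP1 gene (ENSMUSG00000071489.1, chromosome 14, 44851235 to 44859375, minus strand), was the other strongly represented Gs-coupled receptor. It stood at 23.9 to 30.9 scaled TPM in IP (median 27.0) and at 11.9 to 14.6 in IN (median 13.6), with no overlap. The rise was 0.99 ± 0.06 on the log2 scale (limma adjusted p = 1.1e-07) and held in 8 of 8 pools. Its levels overlapped those of Ptgir in IP, so their order there is not separated by the spread between libraries.

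The E receptors of the Gs class behaved differently. Ptger4, the EP4 gene (ENSMUSG00000039942.15, chromosome 15, 5206661 to 5244187, minus strand), was at 1.87 to 2.72 scaled TPM in IP (median 2.47) and at 2.43 to 3.28 in IN (median 3.00), and these ranges overlapped. It was lower in IP in 7 of 8 pools with a log2 change of -0.20 ± 0.05 (limma adjusted p = 0.0067), a direction that reversed in the deposited TPM and under quantile normalization (0.28, adjusted p = 0.0055). The direction of Ptger4 is therefore set by the scaling. It overlaps Ttc33 on the opposite strand over 11676 bases, so its value is uncertain where counting ignored strand. Ttc33 was the more abundant gene, at 27.9 ± 5.38 in IP and 27.7 ± 6.55 in IN, and did not pass (log2 0.03 ± 0.17, limma adjusted p = 0.87).

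Ptger2, the EP2 gene (ENSMUSG00000037759.6, chromosome 14, 44988195 to 45003820, plus strand), was close to the bottom of the range in both fractions. It was at 0.438 to 0.674 scaled TPM in IP (median 0.514) and at 0.292 to 0.661 in IN (median 0.427). The fractions overlapped over most of their range, and the difference of 0.08 ± 0.04 did not pass (95% interval -0.02 to 0.17, adjusted p = 0.13), although it passed under quantile normalization (0.25, adjusted p = 0.0042) and in the deposited TPM (0.85). It too entered the test only through IP. An antisense gene, Gm17173, covers all 15626 bases of Ptger2, so its low values are uncertain.

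Ptger3, the Gi-coupled EP3 gene (ENSMUSG00000040016.16, chromosome 3, 157566892 to 157645888, plus strand), was the most abundant member in both fractions. It was at 31.5 to 51.8 scaled TPM in IP (median 40.9) and at 19.6 to 25.9 in IN (median 22.8), and the lowest IP value came from female pool 2. The IP range did not overlap the IN range or that of the next gene, Ptgdr. The rise was 0.82 ± 0.05 (limma adjusted p = 2.75e-07) in 8 of 8 pools. In IP, its level was 13.7 to 24.4 times that of Ptger4 (median 15.8), and in IN 6.59 to 10.5 times (median 7.70), so the library-wise ratio of the EP3 to the EP4 transcript was higher in every IP library than in any IN library.

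The other Gi-coupled gene, Ptgdr2 (DP2, chromosome 19, 10937160 to 10942511, plus strand), was listed at 0 in 6 of 8 IP and 3 of 8 IN libraries. Its highest value anywhere was 0.0628 scaled TPM, in the IP of female pool 2. No test was made, and at unknown depth a value of 0 does not show that the transcript was absent.

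Ptger1 and the other Gq-coupled genes went opposite ways. Ptger1, the EP1 gene (ENSMUSG00000019464.6, chromosome 8, 83666678 to 83672753, plus strand), was at 4.81 to 6.06 scaled TPM in IP (median 5.32) and at 1.29 to 2.16 in IN (median 2.0). Every IP library was above every IN library, and the mean was 2.86 times as high in IP, the largest ratio of means among the members. The rise was 1.15 ± 0.06 on the log2 scale (limma adjusted p = 5.49e-08). Ptger1 entered the test only through IP, the fraction where it was high (a mean of 12.2 deposited TPM, against 0.86 in IN), so its call and its place in the counts of members are not independent of the filter. The value was also 1.15 with no filter (limma adjusted p = 7.07e-07) and with a filter on the mean over all libraries, which does not use the fractions (limma adjusted p = 4.98e-08). Whether the counting used strand is not stated in the sources used here, and reads of overlapping genes could not then be told apart.

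Ptgfr, the prostaglandin F receptor gene (ENSMUSG00000028036.6, chromosome 3, 151796502 to 151837630, minus strand), had the largest fall. It was at 1.60 to 3.70 scaled TPM in IP (median 1.86) and at 9.41 to 12.1 in IN (median 10.9), and its highest IP value, from female pool 2, was still far below the lowest IN value. Means were 2.16 ± 0.71 in IP and 10.8 ± 0.86 in IN, 4.99 times as high in IN. The fitted change was -1.92 ± 0.11 (limma adjusted p = 1.12e-07), or -2.03 without female pool 2, and in the deposited TPM it was -0.07 and did not pass (adjusted p = 0.60), which is -1.90 relative to the median gene there.

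Tbxa2r, the thromboxane receptor gene (ENSMUSG00000034881.8, chromosome 10, 81328731 to 81335172, plus strand), was at 0.447 to 1.16 scaled TPM in IP (median 0.579) and at 2.2 to 3.08 in IN (median 2.56). The highest IP value was again that of female pool 2, and the fractions did not overlap. It fell by 1.13 ± 0.07 on the log2 scale (limma adjusted p = 1.46e-07) in 8 of 8 pools, a direction that the deposited TPM turned (0.15, adjusted p = 0.14, and -1.69 relative to the median gene). Within the Gq class, the ratio of Ptger1 to Tbxa2r was 4.32 to 13.1 in IP and 0.487 to 0.912 in IN, so EP1 was the more abundant transcript of this pair in every IP library and the less abundant in every IN library.

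Ptgfrn, the partner of the F receptor (ENSMUSG00000027864.9, chromosome 3, 101040232 to 101110278, minus strand), lies on the same chromosome as Ptgfr and moved in the same direction. Its level was 2.67 to 4.73 scaled TPM in IP (median 3.36) and 10.6 to 14.0 in IN (median 11.1), with no overlap. The change was -1.49 ± 0.07 (limma adjusted p = 5.65e-08), and in the deposited TPM 0.48 (-1.36 relative to the median gene). Across the 9 tested members 4 had IP libraries entirely above the IN libraries and 3 entirely below, where 22.4% and 26% of all tested genes did. The same 4 genes were higher, and the same 3 lower, in all 8 pools, where 33.2% and 33% of all tested genes were.

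**Figure D2:**
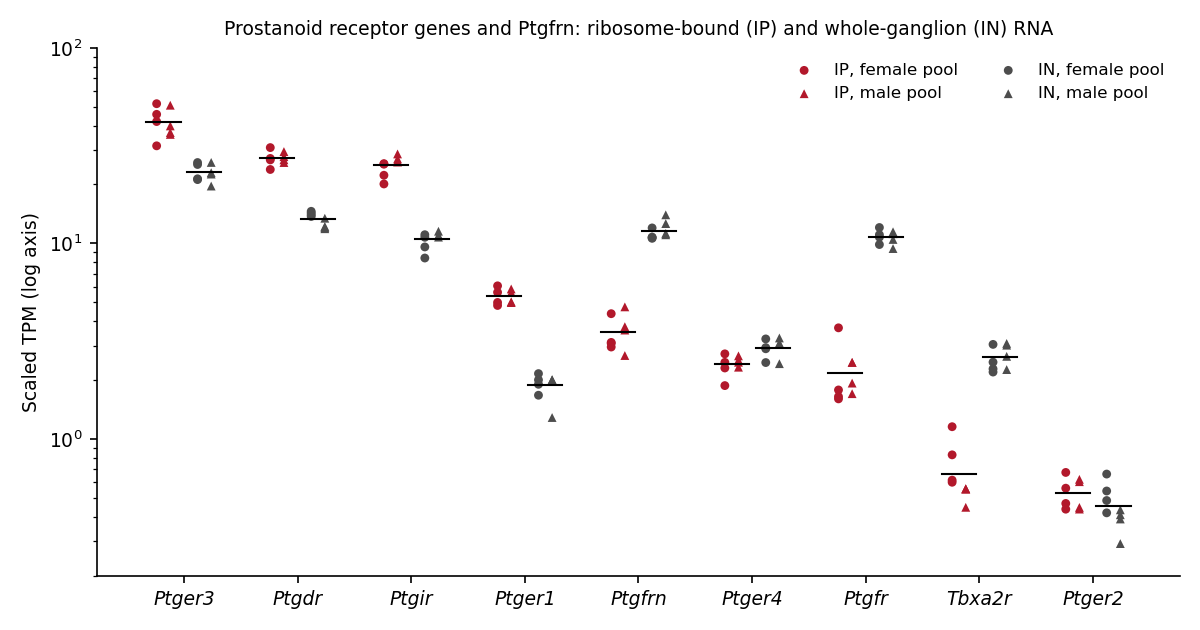
Scaled TPM (vertical log axis) of the 9 tested genes in each of the 16 libraries, with IP in red left of IN in grey, circles for female pools, triangles for male pools and black lines for the mean of 8 libraries. The IP points lie above the IN points for Ptger3, Ptgdr, Ptgir and Ptger1 and below them for Ptgfrn, Ptgfr and Tbxa2r (relative to the typical gene, and not so for Ptgfrn and Tbxa2r on average in deposited TPM), and female pool 2 gives the highest IP value of Ptgfr and Tbxa2r.

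Ranked by mean level, the order in IP was Ptger3, Ptgdr, Ptgir, Ptger1, Ptgfrn, Ptger4, Ptgfr, Tbxa2r, Ptger2 and Ptgdr2. Neighbours whose libraries overlapped there were Ptgdr with Ptgir, Ptgfrn with Ptger4, Ptger4 with Ptgfr, and Tbxa2r with Ptger2. In IN the order was Ptger3, Ptgdr, Ptgfrn, Ptgfr, Ptgir, Ptger4, Tbxa2r, Ptger1, Ptger2 and Ptgdr2. There, Ptgdr, Ptgfrn, Ptgfr and Ptgir formed a run of overlapping neighbours between 8.41 and 14.6, as did Ptger4 with Tbxa2r. Set against all nuclear protein-coding genes tested, the mean level of Ptgir exceeded 79.5% of them in IP and 54.8% in IN, while that of Ptgfr exceeded 20.7% in IP and 55.7% in IN.

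The make-up of the receptor transcripts can be read without any scaling, as each gene's share of the summed TPM of the 9 receptor genes in its own library. Genes of the Gs class held 52.7% ± 2.88 of that sum over the 8 IP libraries and 41.5% ± 2.26 over the 8 IN libraries (SD), and no IN library (highest 44.5%) reached the lowest IP library (48.0%). The Gi class, almost all Ptger3, held 39.4% ± 3.65 in IP and 35.2% ± 2.46 in IN. These ranges overlapped over pools, but within each of the 8 pools, whose IP and IN libraries come from the same mice, the Gi share was higher in IP, by 1.90 to 6.98 percentage points. The Gq class held 7.87% ± 1.43 in IP and 23.3% ± 1.22 in IN. Its lowest IN library, at 21.1%, was above its highest IP library, at 11.2%, which was female pool 2. The difference between fractions in the Gq class came from Ptgfr, with 2.10% ± 0.90 in IP and 16.4% ± 1.04 in IN, and Tbxa2r, with 0.648% ± 0.29 in IP and 4.02% ± 0.66 in IN. Ptger1, of the same class, had the larger share in IP (5.12% ± 0.54, against 2.88% ± 0.49 in IN). Among the Gs genes the share of Ptger4 was lower in IP (2.30% ± 0.26) than in IN (4.46% ± 0.45). The shares of 1 library sum to 100%, so they are not independent of each other. They are given as a description with no test. The summed scaled level of the 9 receptor genes was 105 ± 9.94 in IP and 65.6 ± 2.66 in IN. In bulk RNA, fewer cells of a type and less RNA per cell cannot be told apart. IP is enriched in RNA of the tagged neurons but still holds markers of other cells, while IN holds all cells of the ganglion. The summed levels of the marker lists of glia, fibroblasts and macrophages were also highest in the IP of female pool 2, where the Gq share was highest. Their part in that share was not tested.

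**Figure D3:**
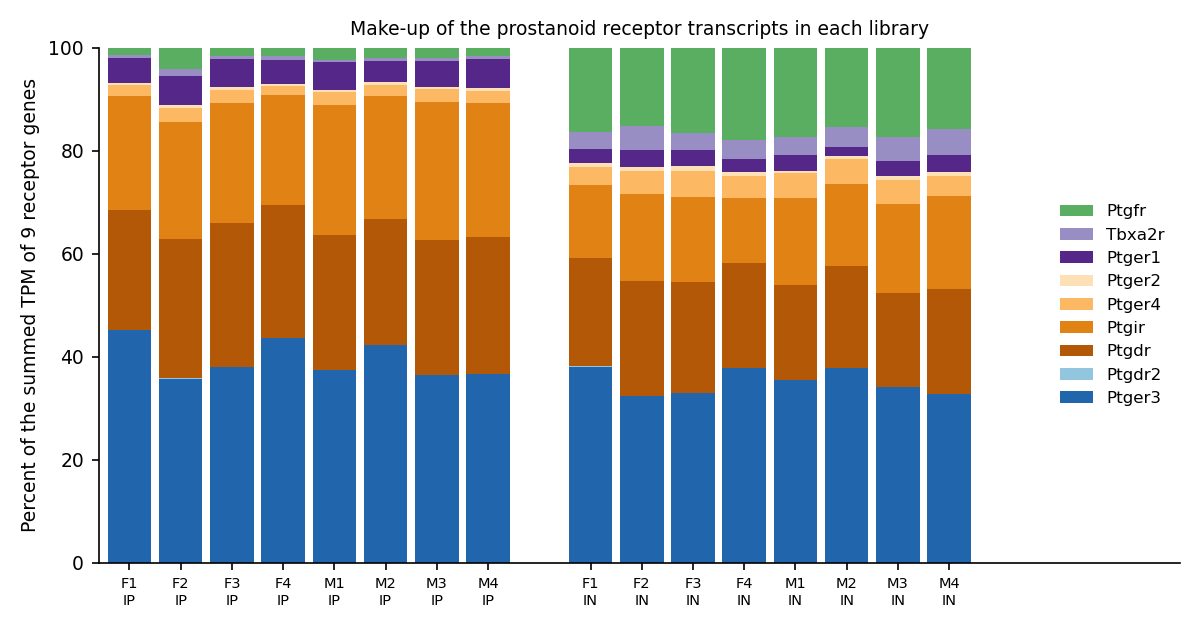
Share of each of the 9 receptor genes in their summed TPM (vertical axis, percent) in each library, with the 8 IP libraries left and the 8 IN libraries right. Blue marks Gi-coupled, orange Gs-coupled, and purple and green Gq-coupled receptors. The green band of Ptgfr takes 1.40% to 4.19% in IP and 15.1% to 17.97% in IN.

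The genes whose profile over the 16 libraries was most like each member's were looked up among nuclear protein-coding genes, by Pearson correlation of log2 levels. Such correlations mostly reflect the step between fractions, which all 16 points share with the pools, and they are given without a p. Ptgir was most like Calca (r = 0.994), the gene of the peptide CGRP, and then Adamts8 (0.992). Ptgdr was most like Gna14 (0.991), which encodes a G alpha subunit of the Gq family, and Dnase1l3 (0.991). For Ptger3 the nearest were Ormdl3 (0.98) and Leprotl1 (0.978), and for Ptger1 they were Asic2 (0.996), an acid-sensing channel gene, and Nup62 (0.992). Ptgfr was nearest to Arhgef3 (0.997) and Rock2 (0.996), Tbxa2r to Angptl7 (0.992) and Wipi1 (0.989), and Ptgfrn to Fads6 (0.997) and Prss35 (0.997). Values were lower for Ptger4, with Gpr83 (0.884) and Aldh5a1 (0.852), and for Ptger2, with Dph7 (0.782) and Erc2 (0.716).

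Genes that make the ligands, and those that act below the receptors, were counted on lists. The counts stand beside 40.5% higher and 38.9% lower over all genes tested, or 90.8% higher and 5.81% lower in the deposited TPM and 27.2% higher and 50.4% lower when scaled to the protein-coding total. Enzymes of prostaglandin synthesis and release had 9 tested genes, of which 3 rose and 5 fell in IP (median log2 -0.19, against 0.02 over all genes tested). That balance turned with the scaling, to 6 higher and 3 lower in the deposited TPM, and was 1 higher and 6 lower when scaled to the protein-coding total. Ptgds, the prostaglandin D synthase gene, was at 42.2 ± 41.9 scaled TPM in IP and 402 ± 140 in IN, and Ptgs1, a cyclooxygenase gene, at 0.485 ± 0.65 in IP and 4.80 ± 0.77 in IN. Both were also lower in the deposited TPM (log2 -1.23 and -0.82). Cbr1, a carbonyl reductase gene, rose by 1.04 ± 0.07. Of 4 tested genes of uptake and breakdown 2 rose and 2 fell (3 higher and 1 lower in the deposited TPM, and 0 higher and 2 lower scaled to the protein-coding total), with Hpgd, the gene of the enzyme that inactivates prostaglandins, at 0.232 ± 0.15 in IP and 2.81 ± 0.17 in IN. Hpgd passed the filter only through IN, the fraction where it was high. Its call and its place in these counts are therefore not independent of the filter.

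Of the 12 G alpha subunit genes 8 rose and 3 fell (median log2 0.48), and in the deposited TPM 12 were higher and 0 lower. Scaled to the protein-coding total, 7 were higher and 5 lower. Gna14 rose by 1.42 ± 0.06 and Gnai2, a Gi subunit gene, by 0.88 ± 0.05. Gnai1, another Gi subunit gene, was at 19.7 ± 1.61 in IP and 41.8 ± 6.14 in IN, a change of -1.04 that the deposited TPM turned (1.17). Adenylyl cyclase, protein kinase A and Epac genes gave 7 higher and 5 lower of 16 (median 0.05), 15 higher and 0 lower in the deposited TPM, and 5 higher and 8 lower when scaled to the protein-coding total. Prkar2b, a regulatory subunit of protein kinase A, rose by 1.21 ± 0.18 and the cyclase gene Adcy5 by 1.10 ± 0.07. Rapgef3, the gene of Epac1, was at 1.53 ± 1.15 in IP and 6.92 ± 1.08 in IN. In the deposited TPM Rapgef3 was at -0.14 and did not pass (limma adjusted p = 0.37). On the Gq side, 7 of 13 genes rose and 4 fell (median 0.22), with 10 higher and 1 lower in the deposited TPM and 6 higher and 6 lower when scaled to the protein-coding total. Prkcd, a protein kinase C gene, and Plcb3, a phospholipase C gene, rose by 1.71 ± 0.08 and 1.63 ± 0.09. Genes of the IP3 receptor calcium channels went the other way relative to the typical gene. Itpr1 was at 4.16 ± 2.2 in IP and 19.2 ± 2.66 in IN, and Itpr3 at 3.77 ± 1.67 in IP and 15.8 ± 0.95 in IN. In the deposited TPM neither passed, with Itpr1 at -0.05 (limma adjusted p = 0.77) and Itpr3 at 0.10 (limma adjusted p = 0.43). Receptor kinases and arrestins, which switch receptors off, gave 3 higher and 2 lower of 7 (median 0.46), 7 higher and 0 lower in the deposited TPM and 3 of each scaled to the protein-coding total. Grk2 led with a rise of 1.13 ± 0.07.

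Channels known as targets of prostaglandin signalling in nociceptors gave 8 higher and 5 lower of 13 (median 0.69), and 13 higher and 0 lower in the deposited TPM, where 90.8% of all genes tested were higher. When scaled to the protein-coding total, 7 channel genes were higher and 5 lower. Scn10a, whose promoter drives Cre here, was at 381 ± 46.8 scaled TPM in IP and 125 ± 12.4 in IN. P2rx3 and Scn11a rose most, by 1.85 ± 0.08 and 1.84 ± 0.07. The list holds several genes that also serve as nociceptor markers here, so its count is not separate from the check of the pulldown. Kcnq3, a potassium channel gene, had the largest fall (-1.45 ± 0.08), a direction that turned in the deposited TPM (0.46).

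**Figure D4:**
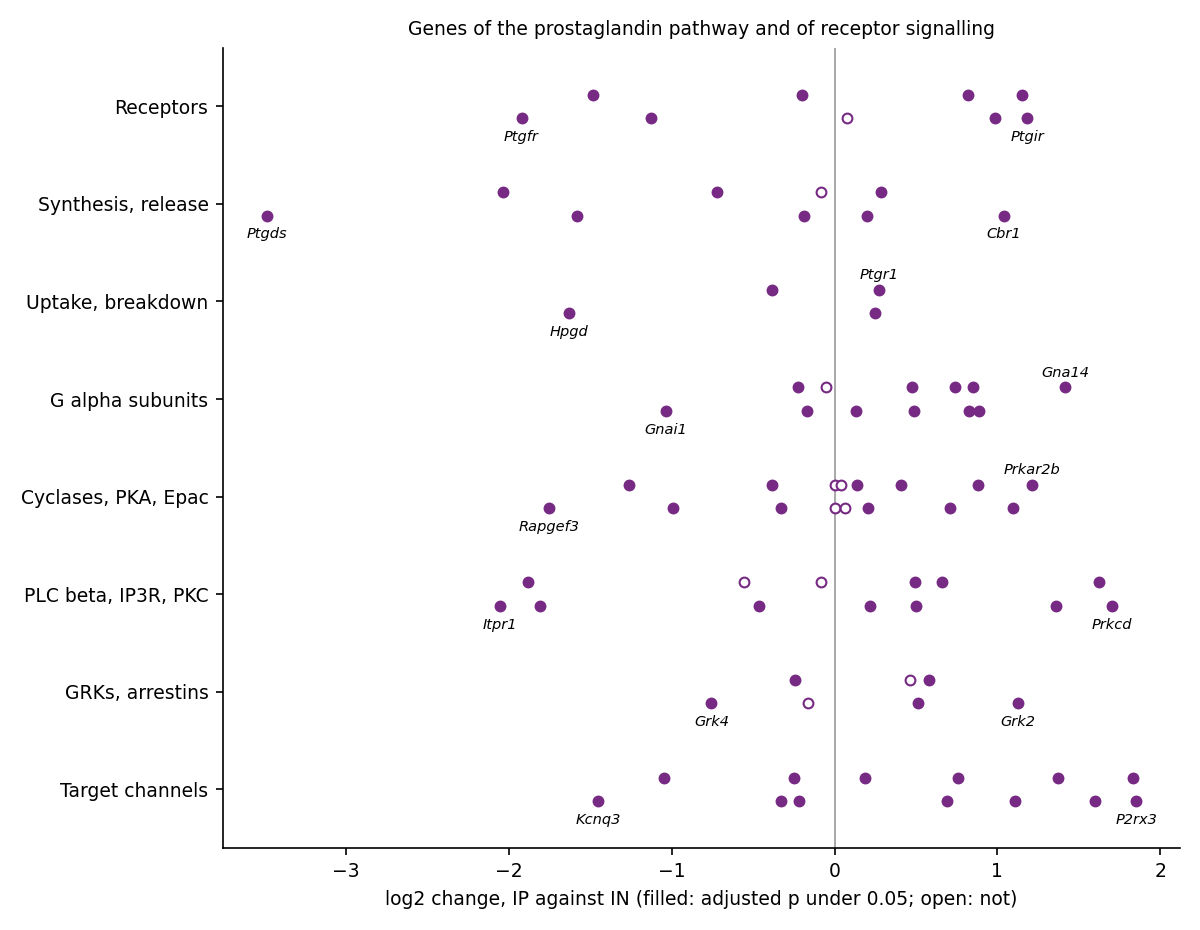
Log2 change, IP against IN, of scaled TPM with 1 added (horizontal axis) for the tested genes of 8 lists (rows), with filled points past an adjusted p of 0.05 and open points not, and the highest and lowest member of each list named. Receptors run from -1.92 (Ptgfr) to 1.18 (Ptgir), and the synthesis list reaches down to Ptgds at -3.49; values are relative to the typical gene, and in deposited TPM the median gene was at 1.84, which put most of the negative points above 0.

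Between the sexes no receptor gene passed. In IP, 0 of 9 members had an adjusted p under 0.05 in limma's test of 4 female against 4 male pools (smallest adjusted p 1), with 1 of 9 at an unadjusted p under 0.05, where 0.0497% of all genes passed after adjustment and 2.25% before it. In IN, 0 of 9 passed (smallest adjusted p 0.962), again with 1 at an unadjusted p under 0.05, where 0.0808% of all genes passed and 4.82% did before adjustment. In simulated data on the 16099 genes, 200 were changed, and each gene was given the same spread in IP as in IN. A difference of 0.5 on the log2 scale was recovered for 44% of changed genes in the IP fit and 40% in the IN fit. A difference of 1 was recovered for 84% and 80%. These shares hold for 200 changed genes, and they neither compare the fractions nor give the chance of finding a difference in either. The 95% intervals of the members lay within -0.46 and 0.47 in IP and within -0.33 and 0.30 in IN. A missed threshold does not show that the sexes are alike. These intervals are for log2 values with 1 added, which understates differences of low genes, so they do not bound the ratio between sexes there. For 2 low genes the ratio of means, female over male, was 1.515 (Tbxa2r in IP) and 1.381 (Ptger2 in IN).

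Ptgir had the only unadjusted p under 0.05 in IP. Its IP level was 25.4, 20.1, 25.6 and 22.3 scaled TPM in the 4 female pools, against 27.0, 28.7, 26.4 and 26.0 in the 4 male pools. All 4 female values lay below all 4 male values, which 0.839% of tested genes also did. The means were 23.3 ± 2.62 in female and 27.0 ± 1.16 in male pools (SD, n = 4 each), a log2 difference of -0.21 ± 0.09 (limma adjusted p = 1, 95% interval -0.41 to -0.01). Without female pool 2 the difference was -0.14. In IN, Ptgir was at 9.59, 11.1, 10.7 and 8.41 in female pools, against 11.0, 11.0, 11.5 and 10.8 in male pools, a difference of -0.14 ± 0.08 (adjusted p = 0.962) with overlapping ranges. Its share of the receptor transcripts in IP was 22.4% ± 0.83 in female and 25.5% ± 1.22 in male pools, a comparison that needs no scaling. This share rests on the same IP values and also moves with the other receptor genes, so it is not separate support.

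Tbxa2r had the opposite sign in IP. It was at 0.601, 1.16, 0.616 and 0.83 scaled TPM in female pools, against 0.447, 0.554, 0.556 and 0.556 in male pools, all female values above all male values (0.826% of tested genes in that direction). The difference was 0.23 ± 0.11 (limma adjusted p = 1, 95% interval -0.02 to 0.47), and 0.14 without female pool 2. In IN the values overlapped, at 2.28, 3.04, 2.2 and 2.47 in female pools, against 2.26, 2.64, 3.08 and 3.02 in male pools. The IP against IN change of Tbxa2r was -1.04 to -0.91 among female pools and -1.39 to -1.17 among male pools. How many of all tested genes separate the sexes in this change was not counted, so no weight is put on the gap. The interaction of sex and fraction for it was 0.33 ± 0.09 (limma adjusted p = 1, 95% interval 0.12 to 0.53), and 0.31 without female pool 2. Across all genes 0.0186% passed for this interaction, and among the members 0 of 9 did, with Tbxa2r the only one at an unadjusted p under 0.05 (2.78% of all genes). The thromboxane receptor is known from platelets, and the summed level of 8 platelet and megakaryocyte markers was 4.24 to 39.0 in female and 3.55 to 8.06 in male IP libraries. Of that list Treml1 was at 0 in every IP library, and the high sums were those of 1 gene, Gp1bb, at 36.7 in female pool 1 and 31.0 in female pool 4. The other 7 markers summed to 2.32 to 3.27 in female and 1.98 to 3.17 in male IP libraries. The summed satellite glia level was 130 to 289 in female and 126 to 247 in male IP libraries, and the part of either list in the Tbxa2r difference was not tested.

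Ptgdr had the only unadjusted p under 0.05 in IN. It was at 14.3, 14.6, 14.0 and 13.7 scaled TPM in female pools, against 11.9, 13.4, 12.1 and 12.2 in male pools, with no overlap (1.32% of tested genes in that direction). The difference was 0.18 ± 0.06 (limma adjusted p = 0.962, 95% interval 0.05 to 0.30), or 1.13-fold. In IP the sexes overlapped, at 26.7, 23.9, 30.9 and 27.2 in female pools, against 27.7, 29.5, 25.9 and 26.7 in male pools, with a difference of -0.02 ± 0.09. The interaction for Ptgdr was -0.20 ± 0.10 and did not pass (limma adjusted p = 1).

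For the E receptors the sexes overlapped in both fractions. Ptger3 was at 51.8, 31.5, 42.0 and 45.7 scaled TPM in female IP and at 39.8, 50.8, 36.1 and 36.9 in male IP libraries, so the spread between pools of one sex was larger than the difference between sexes (0.05 ± 0.16). Ptger1 averaged 5.37 ± 0.58 in female and 5.37 ± 0.43 in male IP libraries, with a 95% interval of the log2 difference of -0.21 to 0.21. Ptger4 averaged 2.34 ± 0.36 in female and 2.50 ± 0.14 in male IP libraries (-0.07 ± 0.10). Ptger2 in IN was at 0.419, 0.542, 0.661 and 0.484 in female pools, against 0.292, 0.390, 0.410 and 0.434 in male pools, a difference of 0.14 ± 0.07 (limma adjusted p = 0.962). Ptgfr and Ptgfrn differed by -0.02 ± 0.20 and -0.09 ± 0.15 in IP, and by 0.04 ± 0.08 and -0.13 ± 0.08 in IN. On the 7 lists of synthesis, breakdown and signalling genes, 0 genes passed between the sexes in either fraction. These lists held 9, 4, 12, 16, 13, 7 and 13 tested genes. In IP, 2 of them had an unadjusted p under 0.05 in limma's test (Prkcb and Grk5), where 2.25% of all genes tested did. In IN 5 did (Ptgs1, Abcc4, Plcb4, Itpr1 and Grk5), where 4.82% of all genes tested did. Both counts are near those shares and are not read as results about these genes.

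**Figure D5:**
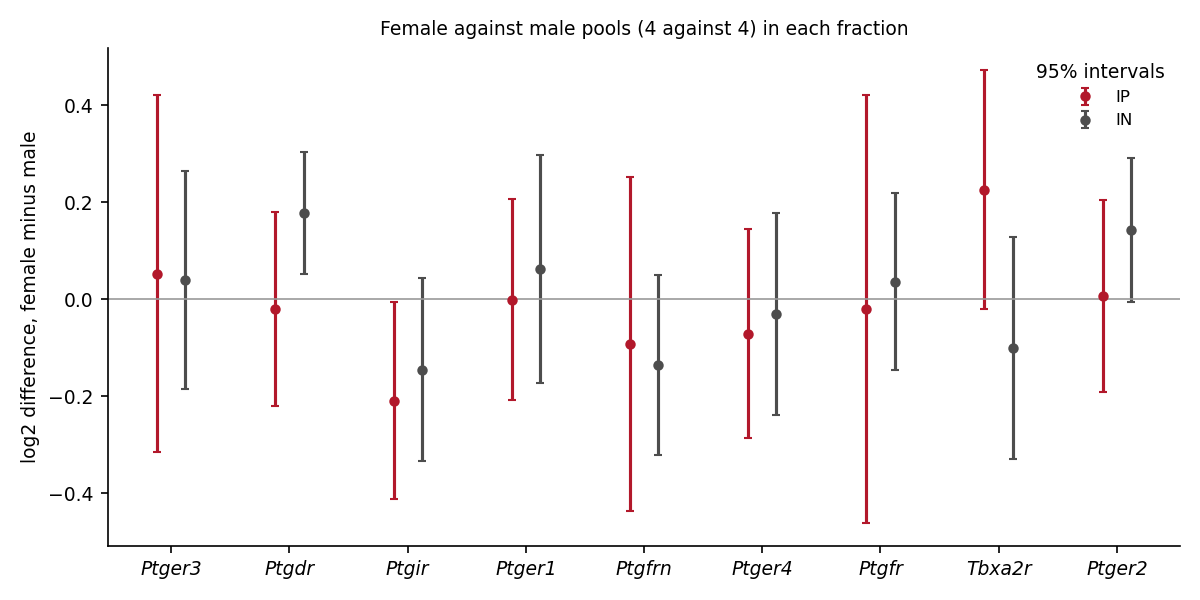
Log2 difference, female minus male (vertical axis, scaled TPM with 1 added), with 95% intervals for the 9 tested genes, in IP (red, left) and IN (grey, right), 4 pools of each sex. The intervals leave 0 out for Ptgir in IP, at -0.21, and for Ptgdr in IN, at 0.18, and neither passed after adjustment over all genes.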

How the data were processed

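The deposited file of each library holds 1 value per gene, taken here for TPM made by the authors: all values of a library add up to 1000000, although the header names Coverage. The submitters' processing notes name FastQC, STAR 2.2.1, StringTie 1.3.5 and GRCm38.p5. Annotation release and strand use are not stated there. TPM keep no counts, so no interval for depth was computed.

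Entries of one gene ID were summed, and GENCODE M21 gave gene types. TPM were divided by median-of-ratios factors over tested genes (1.65 to 2.69 in IP, 0.375 to 0.532 in IN), 1 was added and log2 taken, which understates changes of low genes. A filter kept genes with a mean deposited TPM of at least 1 in IP or IN. Linear models came from limma 3.58.1 under R 4.3.3 (lmFit and trended eBayes), two-sided, Benjamini-Hochberg adjusted over all 16099 genes, with the pool as a block for IP against IN and for the interaction, and none for sex. Files were read and figures drawn with Python 3.11.15, pandas 2.3.3, numpy 2.4.6 and matplotlib 3.10.9. The IP and IN library of a pool come from the same mice per the series design text, and the correlation of their deviations from group means was 0.01 to 0.41. Fits were tested on simulated data. Named genes were all members, up to 4 called genes per list with the largest and smallest changes, and the 2 nearest genes by correlation; some results under this rule are not reported here. Members, lists and tests were chosen with earlier results of these data known. Promoters are RefSeq's, and 9 of 10 members had one. Alternatives tried were other scalings, a pseudocount of 0.1, other filters, no trend, the block, and leaving out each pool.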

Additional observations from a re-analysis of the deposited data

Results flagged for a closer look

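Within each group of 4 libraries, the gap between the most extreme value and its nearest neighbour was compared with the range of the group. Of 39 such groups 5 had a gap above Dixon's 95% limit for 4 samples, where chance gives about 1 in 20. A pair of them was in the IP of female pool 2. Ptgfr was at 3.70 scaled TPM there and at 1.60 to 1.78 in the other 3 female IP libraries, and Ptgfrn was at 4.37, against 2.95 to 3.12 in the others. That library also had the lowest coding share and the highest summed level of satellite glia markers (289) of the IP libraries, and the part of these in the values was not tested. In male IP libraries Tbxa2r was at 0.447 in pool 1 and at 0.554 to 0.556 in the others. In male IN libraries Ptger1 was at 1.29 in pool 2 and at 1.99 to 2.01 in the others. In female IN libraries Ptgfrn was at 12.0 in pool 3 and at 10.6 to 10.7 in the others.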

How the results depend on the processing

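In IP against IN, 136 of 143 member values under alternatives kept their direction and side of the threshold. The others came from scaling. In deposited TPM (median gene 1.84) members called were 7 higher and 0 lower, Ptger4 was at 1.45, Ptgfrn at 0.48, Tbxa2r at 0.15, Ptgfr at -0.07 and Ptger2 at 0.85. Under quantile normalization (median gene 0.17) Ptger4 was at 0.28 and Ptger2 at 0.25. The count of all genes called was 12783, and 21019 with no filter, where more genes were tested. Of called genes 51% were higher, against 94% in deposited TPM, 61.1% under quantile normalization, 35.1% scaled to the coding total and 32.8% with no filter. Leaving out any 1 pool kept every member call, with Ptger4 at -0.23 to -0.16 (largest adjusted p 0.0173). Without the replicate block 12463 genes passed and no member call changed.

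Female against male, 0 members passed under any alternative, while uncalled values changed sign in 24 (IP) and 9 (IN) of 143 cases and in 15 for the interaction. Genes called in IP numbered 8, 5 with the replicate number as a block and 5 to 12 without 1 pool. In IN they were 13, and 8 with the block. For the interaction they were 3, with 11 in deposited TPM, 1 under quantile normalization, 0 with no filter and 0 to 6 without 1 pool. In deposited TPM the median gene was at -0.11 for female against male in IP and at -0.21 for the interaction. The causes were not tested. Female and male libraries share only a number: their deviations correlated at -0.22 to 0.10 in IP and -0.30 to 0.09 in IN, and 0 of 8 IP and 1 of 8 IN libraries correlated best with their own number. Low members rest on unknown depth.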
